A study of Mus musculus with 8 samples.

Results

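Transcripts of 10 oocyte transcription factor genes were followed in mouse oocytes with and without the chromatin remodelling subunit BAF250a, before and after meiotic maturation. The genes were taken by name and not by a measured value from a table of read counts for 54838 Ensembl genes. Earlier results of these data were known when they were chosen. They are 6 germ-line regulators, Figla, Nobox, Sohlh1, Sohlh2, Lhx8 and Foxo3, and 4 germ-line forms of basal transcription proteins, Taf4b, Tbpl2, Gtf2a1l and Taf7l. All 10 were found in the table, and 9 passed the filter on low counts that left 15572 genes to test. Taf7l had no read and was not tested, and Sohlh1 passed through its reads in control GV oocytes.

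The samples were oocytes of C57BL/6 mice, with 5 to 10 oocytes in each, in 4 groups of 2 libraries made from total RNA. Knockout oocytes, labelled BAF250aGKO, lacked Arid1a, which encodes BAF250a, through Gdf9-cre, a recombinase under the promoter of an oocyte growth factor gene that is active in growing oocytes. Control oocytes are labelled wildtype. Whether they carried floxed alleles or the recombinase is not stated in the sources used here. Oocytes were taken at MII, the metaphase of the second meiotic division in which the egg awaits fertilisation, and at the germinal vesicle (GV) stage, before meiosis resumes. The groups are therefore knockout MII, control MII, knockout GV and control GV. The labels do not say that the libraries of a group came from separate mice, so a p-value here speaks of the spread among libraries, which may be technical. The 2 control MII columns carry 1 name and are called libraries a and b.

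As background, FIGLA and the SOHLH proteins are basic helix-loop-helix factors that bind E-boxes, FIGLA with an E protein as partner. NOBOX and LHX8 are homeodomain factors. Together all these factors switch on genes while the follicle forms and the oocyte grows. These are genes of the zona pellucida, of secreted growth factors and of maternal-effect proteins. FOXO3 is a forkhead factor that holds primordial follicles dormant until PI3K and AKT signalling moves it out of the nucleus. TBPL2 stands in for the TATA-binding protein TBP in growing oocytes and pairs with GTF2A1L, the germ-line form of the large TFIIA subunit. TAF4B and TAF7L are germ-line forms of the TFIID subunits TAF4 and TAF7. Transcription is silenced at the end of oocyte growth, so that mRNA levels at MII depend on storage and decay.

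Figla was the one gene of the 10 that passed the test between knockout and control oocytes, and its promoter is shown for that reason. The window (RefSeq, mm10, chr6:86016941-86017240, plus strand) runs from 250 bases before to 50 bases after the start of its coding transcript. Capitals mark E-boxes, the motif CANNTG to which basic helix-loop-helix factors bind and which reads as CANNTG on both strands.
Figla promoter: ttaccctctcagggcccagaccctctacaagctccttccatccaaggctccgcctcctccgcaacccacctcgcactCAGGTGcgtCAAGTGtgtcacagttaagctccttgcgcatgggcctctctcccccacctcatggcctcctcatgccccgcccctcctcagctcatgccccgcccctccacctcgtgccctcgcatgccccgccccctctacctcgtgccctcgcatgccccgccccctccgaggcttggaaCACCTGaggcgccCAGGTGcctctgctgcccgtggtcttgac
The 4 E-boxes are CAGGTG and CAAGTG, which begin 173 and 164 bases before the start, and CACCTG and CAGGTG, which begin 8 and 21 bases after it. An E-box is common in such windows, with 72.3% of 32851 RefSeq promoters of 300 bases holding at least 1. The window held no TAATTG or TAATTA, core motifs bound by NOBOX and LHX8, on either strand, against 8% and 5.29% of all promoters. It held no TATAAA, the core of the TATA box, against 13.6% of all promoters. Of the 9 genes matched to the promoter table, Taf7l alone held TATAAA, with 2 matches. These matches describe the letters of the windows and were not tested as binding sites.

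Arid1a was read first, since it checks the labels. It had 1109 and 576 reads in knockout MII, against 42047 and 39148 in control MII. At GV it had 86 and 312 reads in knockout oocytes, against 8178 and 10928 in control GV. Depth was 19587421 to 33289150 reads in genes per library, and a floor of 3 counts lay between 0.0894 and 0.17 CPM. CPM, the unit of levels below, is the usual depth-scaled count over the reads in the tested genes, scaled by the trimmed mean of M values (TMM). Summed CPM of 10 oocyte markers were 20170 to 21220 in knockout MII, 18700 to 19980 in control MII, 32530 to 45640 in knockout GV and 31620 to 32080 in control GV, with no marker at 0 reads in any library. Summed CPM of 16 granulosa and cumulus cell markers were 110.5 to 117.9, 159.5 to 159.8, 78.2 to 83.3 and 103.9 to 156.5 in the same order of groups, with 7 and 10 of the 16 at 0 reads in knockout MII, 5 and 2 in control MII and 4 in each GV library. Cyp19a1 and Nr5a2 made up most of that sum in every library but control GV library 1. The other 14 markers were split off after their values were seen. They summed to 15.7 and 3.70 CPM in knockout MII against 50.6 and 54.9 in control MII. In knockout GV they summed to 17.1 and 15.7 CPM, against 90.4 and 31.1 in control GV. At MII 8 of the 16 were lower in both knockout libraries than in both control libraries, among them Foxl2, Inhba and Nr5a1 at 0 reads in both knockout libraries. Another 3, Nr5a2, Kitl and Has2, were higher in both knockout libraries, and 5 overlapped, with Fshr at 0 reads in all 4 MII libraries. The share of all genes apart in this way was not computed, so these counts are a description. By edgeR 1 of the 13 markers tested passed as lower in knockout MII, where 3.44% of all genes did. For 10 blood and immune cell markers the sums were 0.0596 to 0.264, 4.19 to 49.2, 0.453 to 0.909 and 0.377 to 1.53 CPM, with Ptprc at 0 reads in all 8 libraries. Theca and stroma markers, 8 in number, summed to 3.96 to 4.76, 3.65 to 16.1, 2.11 to 2.89 and 2.47 to 6.82 CPM.

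At MII Foxo3 and Gtf2a1l were the most abundant of the 10 transcripts per length of exon, and at the GV stage Nobox was so by far. Levels between genes are given as CPM per kilobase of exon, as mean ± SD of 2 libraries. Exon length joins the exons of all annotated transcripts of a gene, so it can exceed the length of the mRNA present. Foxo3 was at 47.2 ± 4.37 CPM per kilobase in knockout MII and 41.7 ± 6.22 in control MII, and Gtf2a1l, whose libraries overlapped with it, at 41.3 ± 14.3 in knockout MII and 37.5 ± 4.37 in control MII. Nobox came next, at 26.5 ± 4.79 in knockout MII and 16.02 ± 3.52 in control MII. In knockout MII Lhx8 stood next, apart from its neighbours at 17.2 ± 4.55, and Sohlh2, Taf4b and Tbpl2 followed at 8.65 ± 0.645, 7.47 ± 3.70 and 4.06 ± 2.59, each overlapping with the next. In control MII Sohlh2 overlapped with Nobox at 13.8 ± 4.53, Lhx8 overlapped with Taf4b at 8.97 ± 0.327 against 7.54 ± 2.98, and Tbpl2 was at 1.93 ± 0.189. Figla was below all of these, at 0.076 ± 0.0437 in knockout MII and 0.756 ± 0.622 in control MII. Taf7l, which is X-linked, had 0 reads in every library, which allows up to 3 counts each.

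The order was different at GV. Nobox stood at 542 ± 66.1 in knockout GV and 472 ± 137 in control GV, above 99.2% and 99.3% of the 12981 genes ranked. Lhx8 followed at 69.8 ± 5.92 in knockout GV and 51.3 ± 12.4 in control GV. Its libraries overlapped with those of Foxo3, at 62.4 ± 21.1 in knockout GV and 45.6 ± 2.52 in control GV. Gtf2a1l and Figla came next, at 46.5 ± 1.00 and 35.9 ± 6.40 in knockout GV and at 39.9 ± 3.03 and 39.7 ± 5.40 in control GV, where these genes overlapped. Sohlh2, Taf4b and Tbpl2 lay between 1.44 and 3.69 as group means at GV, and Taf4b and Tbpl2 overlapped in both genotypes. Sohlh1 was at 0.016 ± 0.0227 in knockout GV and 0.555 ± 0.233 in control GV.

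**Figure D1:**
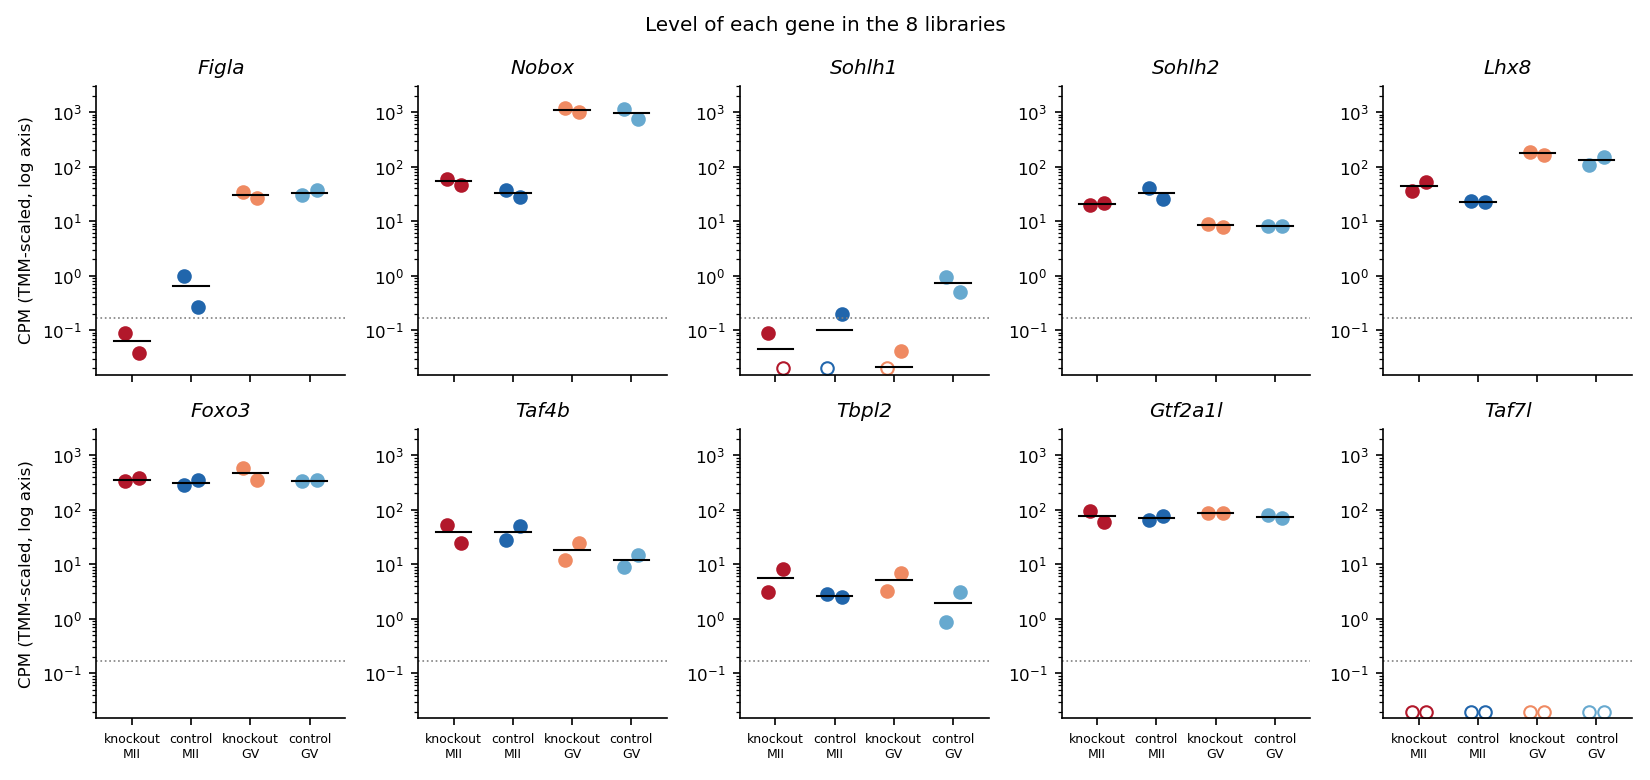
CPM (TMM-scaled, log axis) of each gene in each library, with knockout MII, control MII, knockout GV and control GV from left to right, points for the 2 libraries of a group and a line for their mean. Open circles at the bottom are 0 reads, the dotted line is the highest floor of 3 counts (0.17 CPM), and Figla and Nobox show the widest gaps between stages while Foxo3 and Gtf2a1l stay near one level.

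The first comparison asked whether loss of BAF250a changed these genes in mature eggs. Figla fell in knockout MII oocytes, to a few reads per library. Its counts were 3 and 1 reads (0.0894 and 0.0378 CPM) in knockout MII, against 26 and 8 reads (1.00 and 0.264 CPM) in control MII. Both knockout libraries lay below both control libraries and at or under the floor of 3 counts. The level in knockout was 0.11 of that in control MII, with a 95% counting interval of 0.0284 to 0.309 (exact Clopper-Pearson on 4 against 34 reads, counting error only). The fitted log2 fold change was -3.15 ± 0.79 (SE, 95% interval -4.90 to -1.40, adjusted p = 0.0482, edgeR quasi-likelihood test over all genes). Figla was 1 of the 9 genes tested, where 5.14% of all genes passed, 3.44% of them lower and 1.70% higher. The call rested near the threshold: the adjusted p was 0.052 when libraries were scaled by their totals alone and 0.545 when the MII libraries were fitted alone. It was lost without knockout MII library 1 (log2 fold change -3.85) or 2 (-2.66), without control MII library a (-1.90) and without any 1 of the GV libraries, which share the estimate of spread, and it was kept without control MII library b. Summed granulosa and immune cell markers were also lower in knockout MII than in control MII, by the values given above, and their part in the difference was not tested. In samples of 5 to 10 oocytes, fewer cells of a type and less RNA per cell cannot be told apart.

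Nobox and Lhx8 were above control in both knockout MII libraries without passing the test. Nobox was at 60.1 and 46.5 CPM in knockout MII, against 37.2 and 27.2 CPM in control MII. The groups did not overlap, and the log2 fold change was 0.73 ± 0.31 (95% interval 0.03 to 1.42, adjusted p = 0.208). Lhx8 was at 35.3 and 51.6 CPM in knockout MII, against 23.3 and 22.1 CPM in control MII. These groups were apart too, at 0.93 ± 0.30 (95% interval 0.28 to 1.59, adjusted p = 0.102). Lhx8 passed by DESeq2, where its adjusted p was 0.0463. DESeq2 called 2 of the genes followed here at MII, against 1773 of 14968 genes. By edgeR 3 of the 9 tested had an unadjusted p below 0.05 at MII, against 3450 of 15572 genes.

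Of the SOHLH pair, Sohlh2 lay below control in both knockout MII libraries, at 19.4 and 21.5 CPM in knockout MII, against 40.1 and 24.98 CPM in control MII. The difference was -0.67 ± 0.38 (95% interval -1.51 to 0.17, adjusted p = 0.334). Sohlh1 was at the edge of detection, with 3 and 0 reads in knockout MII, against 0 and 6 reads in control MII. Its level ratio of 0.468 had a counting interval of 0.0758 to 2.19, so no difference was detectable at this depth. Foxo3 was at 334 and 381 CPM in knockout MII, against 282 and 349 CPM in control MII, and the groups overlapped. Its log2 fold change of 0.18 ± 0.30 had an interval of -0.48 to 0.84 (adjusted p = 0.79).

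None of the 3 expressed germ-line forms of the basal machinery passed at MII. Taf4b was at 52.0 and 24.99 CPM in knockout MII, against 28.0 and 49.7 CPM in control MII. The spread within each genotype exceeded the difference of -0.01 ± 0.50 (95% interval -1.11 to 1.09). Tbpl2 was at 3.07 and 8.12 CPM in knockout MII, against 2.85 and 2.48 CPM in control MII. Both knockout libraries were higher, by 1.07 ± 0.82 (95% interval -0.75 to 2.88, adjusted p = 0.498). Gtf2a1l was at 97.0 and 58.9 CPM in knockout MII, against 65.0 and 76.7 CPM in control MII, which overlap (0.14 ± 0.30, 95% interval -0.52 to 0.80).

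The same question at the GV stage gave 0 calls among the 9 genes by edgeR, where 0.989% of all genes passed (0.597% higher, 0.392% lower). No gene of the 9 had an unadjusted p below 0.05, against 1687 of 15572 genes, and DESeq2 also called 0, against 526 of 13458. Over all genes, edgeR called 93 higher and 61 lower, and 59 higher and 62 lower when libraries were scaled by their totals alone. Figla was at 33.8 and 26.2 CPM in knockout GV, against 30.03 and 36.4 CPM in control GV. The libraries overlapped, with a log2 fold change of -0.15 ± 0.51 (95% interval -1.28 to 0.98, adjusted p = 0.988). Nobox was at 1184 and 996 CPM in knockout GV, against 1144 and 754 CPM in control GV (0.20 ± 0.31, 95% interval -0.49 to 0.89). Sohlh2 was nearly the same in all GV libraries, at 8.95 and 7.72 CPM in knockout and 8.17 and 8.09 CPM in control GV (0.04 ± 0.38, 95% interval -0.82 to 0.89).

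Scaled by TMM, Lhx8, Foxo3, Tbpl2 and Gtf2a1l were each higher in both knockout GV libraries than in both control GV libraries, without passing. Scaled by library totals alone, the knockout and control GV libraries overlapped for all 4 genes. The share of all genes apart in this way was not computed. Lhx8 was at 187 and 166 CPM in knockout GV, against 108 and 152 CPM in control GV (0.44 ± 0.29, adjusted p = 0.699). Foxo3 was at 585 and 360 CPM in knockout GV, against 332 and 359 CPM in control GV (0.45 ± 0.30, adjusted p = 0.693), and knockout library 1 alone stood clear of the rest. Tbpl2 had the widest interval of the 4, -0.49 to 3.19, from 3.29 and 6.90 CPM in knockout GV against 0.882 and 3.10 CPM in control GV (1.35 ± 0.83). Gtf2a1l was at 86.4 and 89.1 CPM in knockout GV, against 79.4 and 71.3 CPM in control GV (0.22 ± 0.30). Taf4b overlapped, at 11.95 and 24.4 CPM in knockout GV against 9.10 and 14.9 CPM in control GV (0.60 ± 0.50). With library totals as the only scaling, the signs of Nobox, Sohlh2 and Gtf2a1l at GV turned negative. Sohlh1 had 0 and 1 reads in knockout GV, against 20 and 12 reads in control GV. These reads are a description, since Sohlh1 passed the filter through control GV, and it did not pass the test (adjusted p = 0.484).

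Whether the effect of the knockout differed between MII and GV was tested as an interaction. None of the 9 genes passed by edgeR, where 0.0835% of all genes did (0.00642% higher, 0.0771% lower). DESeq2 called 0, against 355 of 12855 genes. An unadjusted p below 0.05 was found for 1 of the 9, against 1787 of 15572 genes. That 1 gene was Figla, with a difference of -3.00 ± 0.95 on the log2 scale (95% interval -5.10 to -0.90, adjusted p = 0.265). The call of Figla at MII and its absence at GV are therefore not shown to differ.

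**Figure D2:**
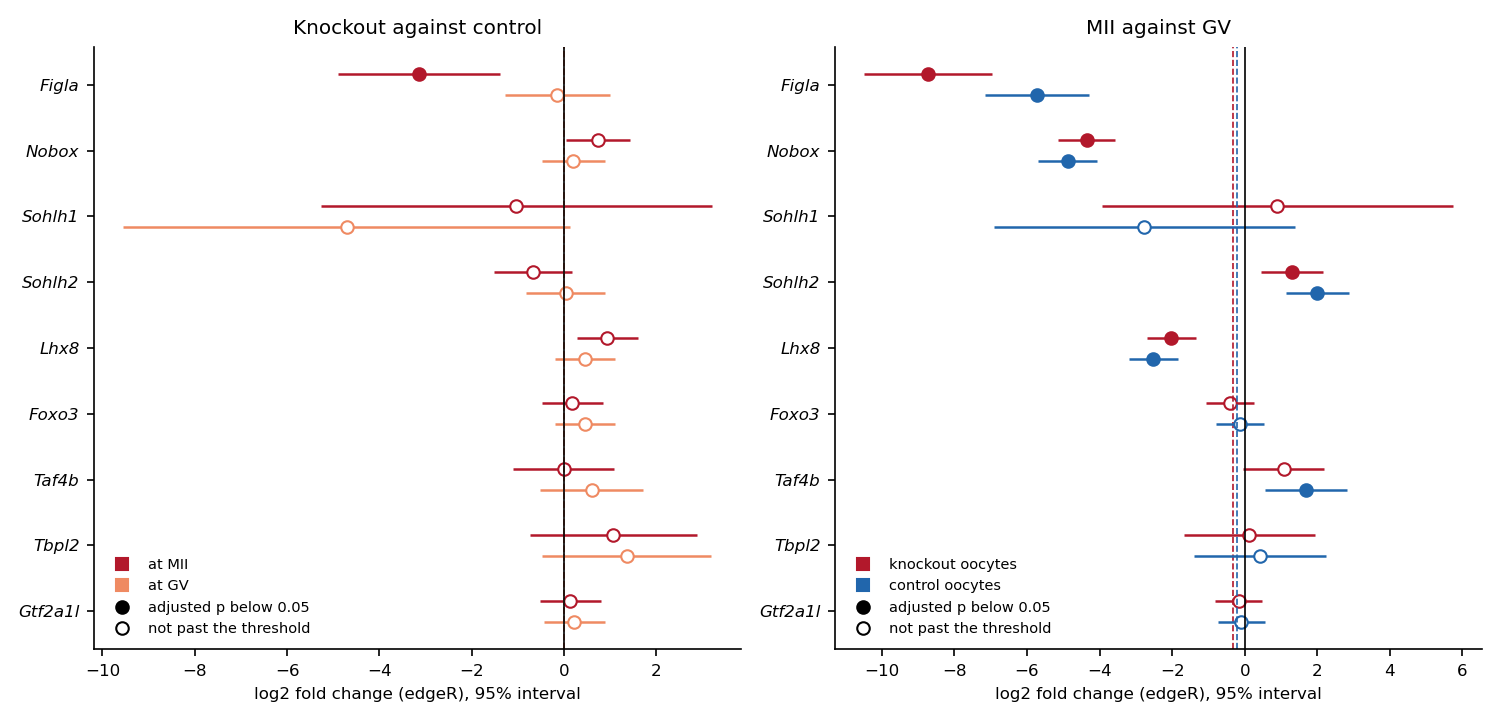
Log2 fold changes with 95% intervals (edgeR) of the 9 tested genes, for knockout against control at MII and GV on the left and for MII against GV in knockout and control oocytes on the right. Filled points passed an adjusted p below 0.05, dashed lines are the medians of all genes tested, and Figla is the one filled point on the left (-3.15), while 4 knockout and 5 control points are filled on the right.

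Maturation set members of the group apart in both directions. CPM is a share of the library, so a rise or fall between stages is relative to the other genes. It does not give an amount of mRNA per oocyte, which was not measured. Between MII and GV, 4 of the 9 genes passed in knockout oocytes, where 49.0% of all genes passed (19.9% higher, 29.1% lower), and 5 passed in control oocytes, where 49.1% did (21.2% higher, 27.9% lower), so both counts lay near the share of all genes. The median log2 fold change of all genes was -0.33 in knockout and -0.20 in control oocytes. For the 9 genes it was -0.17 in knockout and -0.13 in control oocytes, with opposite moves among them. Figla, Nobox and Lhx8 fell in both genotypes, Sohlh2 rose in both, and Taf4b rose in control oocytes. The MII and GV libraries compared within a genotype are also those of the knockout comparisons.

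Figla had the largest fall of the 9. It had 4 reads in knockout MII against 1230 in knockout GV, a level ratio of 0.00227 (95% counting interval 0.000617 to 0.00582), and 34 reads in control MII against 1516 in control GV, a ratio of 0.0181 (0.0125 to 0.0254). The fitted log2 fold changes were -8.72 ± 0.79 in knockout oocytes (adjusted p = 2.19e-05) and -5.72 ± 0.64 in control oocytes (adjusted p = 8.56e-05). Every MII library lay at or under 1.00 CPM and every GV library at or above 26.2 CPM. Nobox, which had the highest level at GV, fell by 4.35 ± 0.36 on the log2 scale in knockout oocytes (adjusted p = 1.29e-05) and by 4.88 ± 0.37 in control oocytes (adjusted p = 1.49e-05). The corresponding means were 53.3 ± 9.64 CPM in knockout MII against 1090 ± 133 CPM in knockout GV, and 32.2 ± 7.08 CPM in control MII against 949 ± 276 CPM in control GV. Even so, Nobox at MII ranked above 87.7% of genes in knockout and 83.3% in control oocytes. Lhx8 fell less, by 2.02 ± 0.30 in knockout oocytes (adjusted p = 0.000408) and by 2.51 ± 0.31 in control oocytes (adjusted p = 0.000143).

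Sohlh2 rose in both genotypes, by 1.29 ± 0.39 on the log2 scale in knockout oocytes (2.45-fold, adjusted p = 0.0186) and by 2.00 ± 0.39 in control oocytes (4.002-fold, adjusted p = 0.00208). All 4 MII libraries, at 19.4 to 40.1 CPM, lay above all 4 GV libraries, at 7.72 to 8.95 CPM. The knockout call was lost without either knockout GV library (adjusted p = 0.0672 without library 1 and 0.103 without library 2). Taf4b rose by 1.69 ± 0.51 in control oocytes (3.24-fold, adjusted p = 0.02), and was 1.08 ± 0.50 higher at MII in knockout oocytes without passing (adjusted p = 0.0987). The control call was lost with library totals as the only scaling (adjusted p = 0.0632), without control MII library b (0.135) and without control GV library 1 (0.137).

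Foxo3, Gtf2a1l, Tbpl2 and Sohlh1 did not pass in either genotype. Foxo3 differed by -0.40 ± 0.30 in knockout oocytes (95% interval -1.06 to 0.26) and -0.13 ± 0.30 in control oocytes (-0.79 to 0.53). Gtf2a1l differed by -0.17 ± 0.30 in knockout oocytes (-0.83 to 0.49) and -0.09 ± 0.30 in control oocytes (-0.75 to 0.57). These intervals leave out a change of 1 on the log2 scale in control oocytes for both genes, and Gtf2a1l also in knockout oocytes. Tbpl2 had wider ones, -1.66 to 1.92 around 0.13 in knockout oocytes and -1.40 to 2.23 around 0.42 in control oocytes. Sohlh1 had 3 reads in knockout MII against 1 in knockout GV, a ratio of 2.09 (counting interval 0.168 to 109.8), and 6 reads in control MII against 32 in control GV. Its adjusted p was 0.755 in knockout and 0.241 in control oocytes.

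The germ-line forms of the basal machinery were then set beside their somatic counterparts, per kilobase of exon. That length joins the exons of all annotated transcripts, and the shares within a pair depend on it. In these relative levels Gtf2a1l stayed near one level while the somatic Gtf2a1 rose past it. Gtf2a1 was at 78.0 and 110 CPM per kilobase in knockout MII and 65.2 and 64.3 in control MII, against 15.5 and 14.4 in knockout GV and 6.89 and 7.29 in control GV. It rose in maturation by 2.66 ± 0.28 on the log2 scale in knockout oocytes (adjusted p = 4.95e-05) and by 3.19 ± 0.28 in control oocytes (adjusted p = 2.73e-05). Gtf2a1l made up 39.7% and 22.1% of the sum of both genes in knockout MII, 34.6% and 38.7% in control MII, 74.8% and 76.6% in knockout GV, and 85.9% and 83.8% in control GV. Per kilobase the majority thus lay with the germ-line form in every GV library and with the somatic form in every MII library. In CPM Gtf2a1 was the higher in both knockout GV libraries, at 96.5 and 89.9 against 86.4 and 89.1 for Gtf2a1l. It was the lower in both control GV libraries. At GV the share was lower in both knockout libraries, where Gtf2a1 stood 1.07 ± 0.27 higher on the log2 scale than in control GV without passing (adjusted p = 0.111).

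Taf4, the somatic counterpart of Taf4b, was the larger of that pair in every library and rose with maturation. Taf4 was at 71.1 and 74.0 CPM per kilobase in knockout MII and 56.4 and 59.4 in control MII, against 13.6 and 12.3 in knockout GV and 9.45 and 8.50 in control GV. The rise was 2.49 ± 0.25 in knockout (adjusted p = 4.16e-05) and 2.69 ± 0.26 in control oocytes (adjusted p = 3.82e-05). Taf4b held 12.4% and 6.16% of the pair's sum in knockout MII and 8.79% and 14.0% in control MII, against 14.6% and 27.9% in knockout GV and 15.8% and 25.4% in control GV. Taf7 was read in every library, from 4.77 to 32.1 CPM per kilobase, whereas Taf7l was in none. Taf7 rose by 1.44 ± 0.45 in knockout (adjusted p = 0.0225) and by 2.27 ± 0.46 in control oocytes (adjusted p = 0.00245). The knockout call was lost without either knockout MII library (adjusted p = 0.0598 and 0.0569) and without knockout GV library 2 (0.113).

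Per kilobase of exon the TBP family was low throughout, with no library above 5.89 CPM per kilobase for any of the 3 genes. In CPM Tbp was at 24.5 to 69.2 and Tbpl2 at 0.882 to 8.12, so the shares below rest on the exon lengths used. Tbpl2 held 48.5% and 76.5% of the sum of Tbpl2 and Tbp in knockout MII, 32.3% and 41.1% in control MII, 34.7% and 49.5% in knockout GV, and 15.7% and 38.0% in control GV. The libraries of a group differed widely, and knockout and control overlapped at GV and not at MII. Tbp fell in maturation in knockout oocytes by 1.198 ± 0.33 on the log2 scale (adjusted p = 0.0123). In control oocytes its difference was -0.04 ± 0.32 (adjusted p = 0.926). That call was lost without knockout MII library 2 (adjusted p = 0.0688) or knockout GV library 2 (0.0636), and the difference between genotypes did not pass (-1.16 ± 0.46, adjusted p = 0.38). Tbpl1, which encodes a further TBP-like factor, rose by 2.72 ± 0.55 in knockout (adjusted p = 0.00229) and by 1.59 ± 0.53 in control oocytes (adjusted p = 0.0296). The control call of Tbpl1 was lost with library totals as the only scaling (adjusted p = 0.0849).

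**Figure D3:**
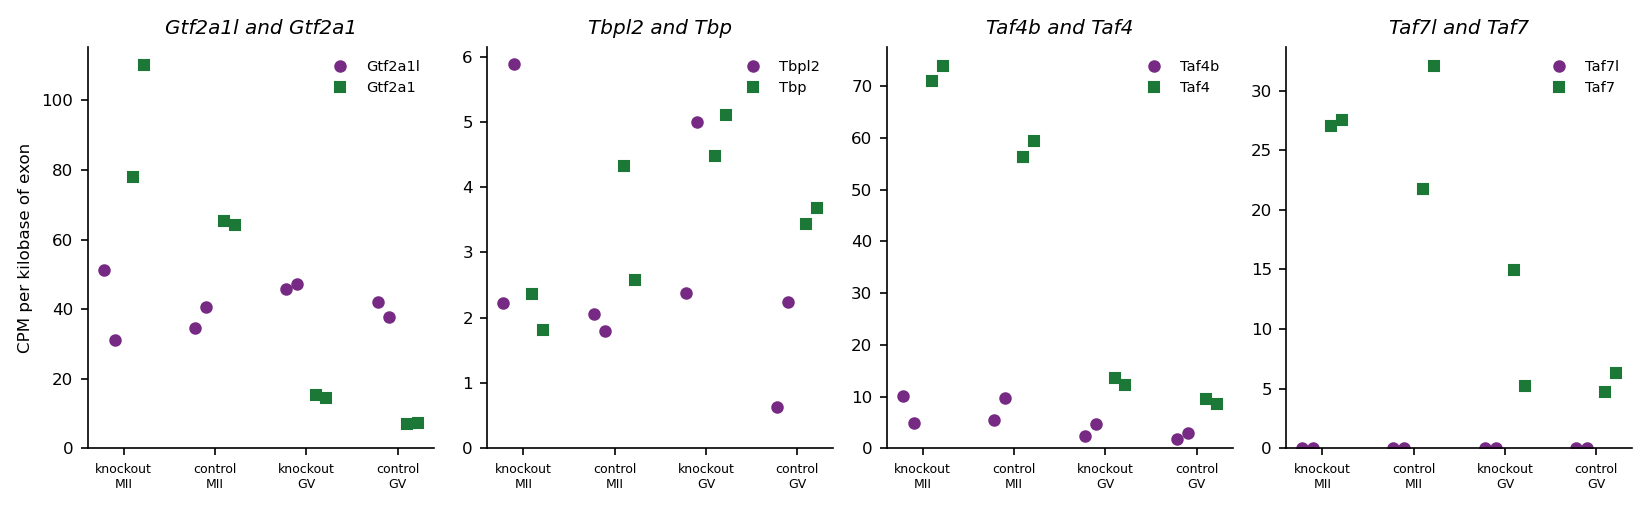
CPM per kilobase of exon of each germ-line gene (purple circles) beside its somatic counterpart (green squares) in each library, with knockout MII, control MII, knockout GV and control GV from left to right. Gtf2a1l lies above Gtf2a1 in all 4 GV libraries and below it in all 4 MII libraries, Taf4b lies below Taf4 in all 8, and Taf7l is at 0 in all 8.

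The rest of the basal machinery, a list of 31 genes of TFIID, TFIIA, TFIIB, TFIIE, TFIIF and TFIIH that includes the somatic counterparts, moved in both directions with maturation. Of 30 tested, 15 rose and 7 fell in knockout oocytes, where 19.9% of all genes rose and 29.1% fell. In control oocytes 15 rose and 7 fell, where 21.2% of all genes rose and 27.9% fell. The medians were 0.85 in knockout and 1.00 in control oocytes on the log2 scale, against -0.33 and -0.20 for all genes. The largest rises in knockout oocytes were Tbpl1 and the TFIID subunit gene Taf13 (2.70 ± 0.27, adjusted p = 3.72e-05), and in control oocytes Gtf2a1 and Taf4. The largest falls were Gtf2h5, the smallest TFIIH subunit, and Gtf2f1, the large TFIIF subunit. The log2 change of Gtf2h5 was -6.45 ± 0.44 in knockout and -4.56 ± 0.39 in control oocytes, and that of Gtf2f1 -6.15 ± 0.88 in knockout and -5.55 ± 0.85 in control oocytes. Between genotypes 1 of the 30 passed at MII and 0 at GV by edgeR, against 5.14% and 0.989% of all genes. Gtf2h5 had 25 and 14 reads in knockout MII, against 70 and 105 reads in control MII, and fell by 2.26 ± 0.39 on the log2 scale in the knockout (adjusted p = 0.012). The call did not hold without knockout MII library 2 (adjusted p = 0.0637) or in the MII libraries alone (0.351). At GV 3 of the 30 had an unadjusted p below 0.05, against 1687 of 15572 genes, and DESeq2 called 2, against 526 of 13458.

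Genes that are known to depend on these factors fell more often than they rose in maturation. Of 19 such genes, 13 fell and 0 rose in knockout oocytes by edgeR, where 29.1% of all genes fell and 19.9% rose, and 10 fell and 2 rose in control oocytes, where 27.9% fell and 21.2% rose. The median was -1.39 in knockout and -0.86 in control oocytes, against -0.33 and -0.20 for all genes. The largest falls in knockout oocytes were Fgf8, an oocyte growth factor, at -6.17 ± 0.60 (adjusted p = 3.15e-05), and Padi6, a maternal-effect protein of cytoplasmic lattices, at -5.02 ± 0.41 (adjusted p = 1.35e-05). In control oocytes the largest falls were Zp2, which encodes a zona pellucida protein, at -5.23 ± 0.35 (adjusted p = 1.26e-05), and Padi6, at -5.20 ± 0.42 (adjusted p = 1.86e-05). Zp1 and Zp3, named after their values were seen because they complete the zona targets of FIGLA, also fell in both genotypes. The log2 changes were -4.91 ± 0.35 in knockout and -4.58 ± 0.35 in control oocytes for Zp1, and -3.98 ± 0.36 in knockout and -4.65 ± 0.37 in control oocytes for Zp3. Against that direction, Rfpl4, an oocyte RING finger gene that depends on NOBOX, rose by 2.44 ± 0.41 in control oocytes (adjusted p = 0.000785), and Oosp1, an oocyte-secreted protein, by 1.18 ± 0.40 (adjusted p = 0.0316). In knockout oocytes these differed by 0.76 ± 0.39 and 0.95 ± 0.40 without passing.

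No zona gene passed between genotypes at MII. Transcription is already silenced at that stage, so this comparison did not test their dependence on FIGLA. Zp2 was at 97.5 and 111 CPM in knockout MII, against 79.5 and 76.3 CPM in control MII (0.42 ± 0.30, 95% interval -0.24 to 1.08, adjusted p = 0.456). Zp1 differed by -0.02 ± 0.30 and Zp3 by 0.74 ± 0.32. Between knockout and control, 0 of the 19 passed at MII, against 5.14% of all genes. There 2 had an unadjusted p below 0.05, against 3450 of 15572 genes, and DESeq2 called 0, against 1773 of 14968. At GV 1 passed, against 0.989% of all genes. Rfpl4 was at 2314 and 1094 CPM in knockout GV, against 227 and 369 CPM in control GV. Both knockout libraries were far above both controls, by 2.52 ± 0.41 on the log2 scale (adjusted p = 0.0174). The call was lost without either control GV library (adjusted p = 0.196 and 0.105) and without knockout GV library 1 (0.0812). At MII Rfpl4 was at 2890 and 2887 CPM in knockout, against 1560 and 1672 CPM in control (0.84 ± 0.39, adjusted p = 0.237).

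The E proteins, the class of the partner of FIGLA, and the inhibitory Id proteins were read as a list of 7. Tcf3, which encodes the E proteins E12 and E47, was at 64.0 and 50.5 CPM in knockout MII and 80.4 and 60.5 CPM in control MII, against 25.5 and 21.3 CPM in knockout GV and 15.4 and 31.8 CPM in control GV. It rose by 1.29 ± 0.38 in knockout (adjusted p = 0.0172) and by 1.58 ± 0.38 in control oocytes (adjusted p = 0.00666). Tcf12, a further E protein gene, rose by 1.52 ± 0.43 in knockout oocytes (adjusted p = 0.0146), with a value of 0.83 ± 0.43 in control oocytes (adjusted p = 0.13). Id3 fell by 2.47 ± 0.70 in knockout oocytes (adjusted p = 0.0148) and was at -0.89 ± 0.67 in control oocytes. Id1 was at -1.28 ± 1.06 in knockout and Id2 at -0.95 ± 1.29 in control oocytes without passing. Id4 had the highest value in knockout oocytes, 3.47 ± 1.69, and Tcf4 the next, 1.96 ± 1.58, and neither passed. None of the 7 passed between genotypes by edgeR, against 5.14% of all genes at MII and 0.989% at GV. At MII 2 of them had an unadjusted p below 0.05, against 3450 of 15572 genes, and DESeq2 called 2, against 1773 of 14968. At GV both counts were 0, against 1687 of 15572 and 526 of 13458.

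A list of 22 genes of PI3K, AKT, mTOR and FOXO signalling held genes that act on FOXO3, other FOXO genes and genes downstream of FOXO factors. In maturation 11 of them rose and 2 fell in knockout oocytes, where 19.9% of all genes rose and 29.1% fell, and 10 rose and 1 fell in control oocytes, where 21.2% rose and 27.9% fell. The medians were 1.02 in knockout and 0.93 in control oocytes, against -0.33 and -0.20 for all genes, while Foxo3 itself passed in neither genotype. Pdpk1, which activates AKT, rose by 2.40 ± 0.29 in control oocytes (adjusted p = 0.000121). Tsc2, a brake on mTOR, fell by 3.84 ± 0.49 in knockout and by 5.75 ± 0.53 in control oocytes. Sgk1 fell by 6.32 ± 1.05 in knockout oocytes (adjusted p = 0.00075), and the p53 target Sesn1 was at -0.72 ± 1.32 in control oocytes. Between genotypes 1 of the 22 passed at MII, where 5.14% of all genes did, and 0 at GV, where 0.989% did. At GV 3 of the 22 had an unadjusted p below 0.05, against 1687 of 15572 genes, and DESeq2 called 0, against 526 of 13458. The gene called at MII was Sgk1, a kinase related to AKT that can phosphorylate FOXO3, with 0 and 6 reads in knockout MII, against 433 and 194 reads in control MII. Its fitted log2 fold change was -6.71 ± 1.06 (adjusted p = 0.00842), and the call held under every alternative run, with adjusted p up to 0.0332. Its size rests on few reads, with a log2 fold change of -5.62 without knockout MII library 1 and with 0 knockout reads left without knockout MII library 2. At GV Sgk1 was at 8.72 and 8.88 CPM in knockout, against 11.6 and 10.6 CPM in control (-0.33 ± 0.77, adjusted p = 0.979). The granulosa enzyme gene Hsd17b1 also fell at MII, with 2 and 0 reads in knockout MII against 79 and 71 reads in control MII (adjusted p = 0.0305), a level ratio of 0.0125 (95% counting interval 0.0015 to 0.0459). The 14 granulosa and cumulus cell markers other than Cyp19a1 and Nr5a2 were lower in sum, as given above. The blood cell marker Cd52 had 0 and 0 reads in knockout MII against 108 and 304 in control MII, a description, since it passed the filter on low counts through control MII. Their part in the value of Sgk1 was not tested.

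A list of 10 other oocyte genes, mostly transcription factors, held no call between genotypes by edgeR, against 5.14% of all genes at MII and 0.989% at GV. An unadjusted p below 0.05 was found for 1 at MII, against 3450 of 15572 genes, and for 0 at GV, against 1687. DESeq2 called 0 at both, against 1773 of 14968 genes at MII and 526 of 13458 at GV. In maturation 3 of the 10 rose and 1 fell in each genotype, near the 49.0% of all genes called in knockout and 49.1% in control oocytes, with medians of 0.59 in knockout and 0.26 in control oocytes against -0.33 and -0.20 for all genes. Nr6a1, a germ cell nuclear receptor, rose by 1.52 ± 0.27 in knockout oocytes (adjusted p = 0.00117), and Hsf1, the heat shock factor needed for meiotic progression, by 1.86 ± 0.30 in control oocytes (adjusted p = 0.000634). Yy1 rose by 1.62 ± 0.59 in control oocytes (adjusted p = 0.0432) and was at 1.45 ± 0.59 in knockout oocytes. Dynll1, which encodes a dynein light chain and not a transcription factor, fell in both genotypes. Its log2 change was -4.64 ± 0.42 in knockout and -4.401 ± 0.41 in control oocytes, close to that of Nobox. Hsf2 was at -1.02 ± 0.79 in knockout and -0.21 ± 0.78 in control oocytes.

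**Figure D4:**
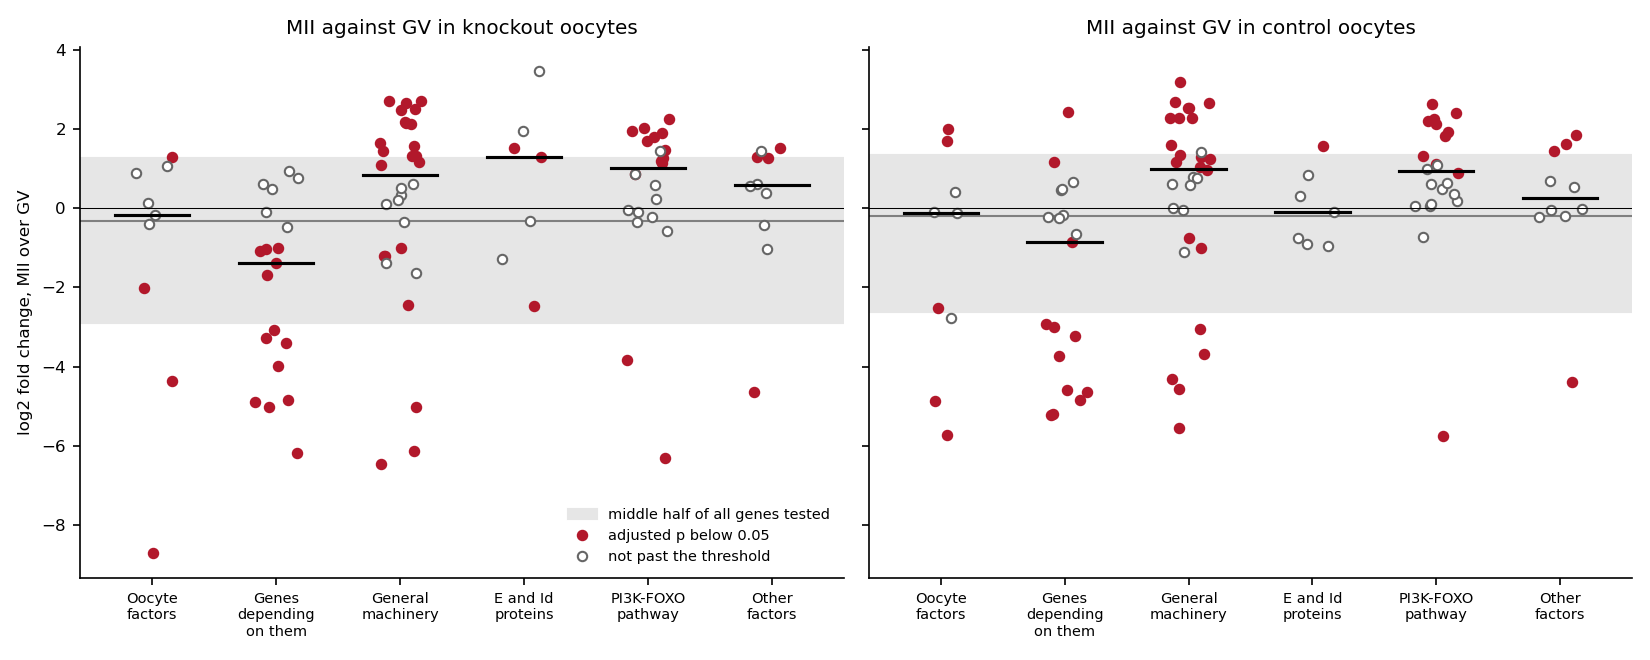
Log2 fold change of MII over GV (vertical axis) for each tested gene of the 10 factors and of the other lists, in knockout oocytes on the left and control oocytes on the right. Red points passed, black bars are list medians, the grey band spans the middle 50% of all genes tested around their median line, and the median of the genes that depend on the factors lies below that line, those of the machinery and the PI3K-FOXO list above it, and all 3 inside the band.

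Among 8161 protein-coding genes with a mean of at least 5 CPM, the 3 whose levels followed Figla most closely over the 8 libraries were Ndufa2, Zpr1 and Mgmt. Pearson's r of log2 CPM with Figla was 0.9992 for Ndufa2, a complex I subunit, 0.9989 for Zpr1, a zinc finger protein, and 0.9983 for Mgmt, a DNA repair enzyme. The 8 points share 2 stages, and the gap between stages sets most of each r. Ndufa2 was at 1.25 and 1.06 CPM in knockout MII and 6.92 and 2.91 CPM in control MII, against 199 and 133 CPM in knockout GV and 183 and 204 CPM in control GV.

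Sohlh2 alone of the 10 genes held a match to the cytoplasmic polyadenylation element near its annotated 3' end. That element is the motif by which stored transcripts gain a longer poly(A) tail in maturation. The matches describe the letters of the 3' ends and were not tested as working elements. The motif (TTTTAT or TTTTAAT, sense strand) and the window of the last 100 bases were chosen after the maturation values had been seen. Sohlh2 had 2 matches there. The one nearest the end begins 11 bases before it (mm10, chr3:55209928-55209957, plus strand) and is shown with the motif in capitals, because Sohlh2 rose in both genotypes.
Sohlh2 3' end: tttaataaaatgttttctcTTTTATaataa
Of 12328 tested protein-coding genes with a long enough 3' untranslated region, 19.7% held a match. The share was 31.6% of the 2990 genes higher at MII in control oocytes and 9.4% of the 3289 genes lower there. Figla, Nobox and Lhx8, which fell, had none in the last 100 bases, and neither did Taf4b, which rose in control oocytes. The genes of these shares were grouped by the measured change, so the shares are a description. The labels do not say whether poly(A)+ RNA was selected, and the part of tail length in the measured levels was not tested.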

How the data were processed

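Total RNA of mouse oocytes was sequenced in 8 libraries. The authors deposited whole-number read counts per Ensembl gene and 5 summary entries that name no gene. These entries hold 22% to 35.1% of the reads and were left out of every step. The submitters' processing notes name Bowtie2, HTSeq, edgeR and the build mm10. Versions, annotation release and strand setting are not stated there, so overlapping antisense transcripts could add reads. No exon of the 10 genes overlaps another gene in GENCODE M21, which gave symbols, positions and exon lengths.

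The counts were analysed with edgeR 4.0.16 (R 4.3.3): filterByExpr, TMM scaling, 1 term per group over all 8 libraries, and the two-sided quasi-likelihood F-test of 5 contrasts. P-values were adjusted over all 15572 genes by Benjamini-Hochberg, with a threshold of 0.05. The steps were tested on simulated data. SE is the log2 fold change divided by the square root of F. Replicate libraries differed beyond sampling noise (chi-square per degree of freedom 52.2 to 115), so no column repeated another. Alternatives were other scalings, DESeq2 1.42.0, other filters, fewer libraries and a replicate block.

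All 10 genes were reported in every library. Other lists name genes past the threshold between genotypes, the somatic counterparts, and the 2 largest maturation changes in each direction of each list, with marker lists given as sums. Some genes that this choice names are not reported here. The genes and lists were chosen with earlier results of these data known. Promoters are from RefSeq on GRCm38.p6, in mm10 coordinates.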

Additional observations from a re-analysis of the deposited data

Results flagged for a closer look

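Tbp was flagged because its knockout and control libraries, scaled by TMM, separated in opposite directions at the 2 stages. Scaled by library totals alone, the MII libraries stayed apart and the GV libraries overlapped. Tbp at GV was then at 47.3 and 74.86 CPM in knockout, against 48.05 and 60.8 CPM in control. The values that follow are scaled by TMM. At MII both knockout libraries, at 32.1 and 24.5 CPM, lay below both control libraries, at 58.8 and 35.0 CPM, with a log2 fold change of -0.7264 ± 0.33 (adjusted p = 0.224). At GV both knockout libraries, at 60.8 and 69.2 CPM, lay above both control libraries, at 46.7 and 49.9 CPM, with a log2 fold change of 0.4292 ± 0.32 (adjusted p = 0.764). Neither passed, and the difference between the stages did not pass either (-1.16 ± 0.46, adjusted p = 0.38, edgeR quasi-likelihood test). No group was large enough for a search for outlying libraries.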

How the results depend on the processing

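Of 629 alternative values of the 45 fold changes (9 genes in 5 contrasts), 585 kept their direction and their side of the threshold. A value that kept its sign but had no adjusted p was counted among these. Of the rest, 14 lost the call, 2 gained one and 28 changed sign, all 28 being values that had not passed. The falls of Figla, Nobox and Lhx8 in maturation kept their calls in both genotypes under every alternative run. The number of the 9 genes past the threshold between knockout and control at MII, 1 as reported, was 0 with library totals as the only scaling, 0 when the MII libraries were fitted alone, 2 with DESeq2, and 0 to 1 when each library was left out in turn. The cause of these shifts was not tested. The other 4 counts stayed within 1.5 times. Over all genes at MII, DESeq2 called 1773 of 14968, against 800 of 15572 by edgeR.

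Library totals moved the median of all genes at GV to -0.27, against -0.00 with TMM, and that of maturation in control oocytes to -0.36, against -0.20. At GV, knockout against control then gave -0.070 for Nobox, -0.25 for Sohlh2 and -0.045 for Gtf2a1l, and Gtf2a1l gave 0.13 for the difference between stages. Taf4b at MII, -0.01 as reported, was 0.0004 with DESeq2 size factors in edgeR, 0.0003 with DESeq2 and 0.0095 without a filter. Sohlh2 at GV was -0.018 with a filter of at least 5 CPM. With 1 library left out, and the lone library of its group assumed to vary like the other groups, knockout against control ranged from -0.25 to 0.52 for Gtf2a1l, -0.63 to 0.53 for Taf4b and -4.35 to 3.38 for Sohlh1 at MII. At GV it ranged from -0.34 to 0.023 for Figla, -0.070 to 0.53 for Nobox, -0.068 to 0.14 for Sohlh2 and -0.0049 to 1.03 for Taf4b. In maturation of knockout oocytes the ranges were -0.61 to 0.16 for Gtf2a1l, -0.72 to 0.77 for Tbpl2 and -2.46 to 3.399 for Sohlh1, and in control oocytes -0.22 to 1.59 for Tbpl2. For the difference between stages they were -0.58 to 0.15 for Foxo3, -0.47 to 0.31 for Gtf2a1l and -1.46 to 0.35 for Tbpl2.

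Over all genes, 154 passed at GV, against 526 with DESeq2, 527 without a filter and 770 in the GV libraries alone. At MII 800 passed, against 1773 with DESeq2 and 1829 without a filter. For the difference between stages 13 passed, against 1 with DESeq2 size factors, 2 with library totals, 41 with at least 5 CPM, 355 with DESeq2 and 498 without a filter. With 1 library left out, 26 to 177 passed at GV, 365 to 763 at MII and 0 to 20 for the difference. With windows of 200 bases, chosen after seeing the data, 30.4% of tested genes, 45.3% of those higher and 16.03% of those lower at MII in control oocytes held the 3' end motif.

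The groups share replicate numbers 1 and 2 apart from the control MII columns, which carry none that can be told apart. Deviations of same-numbered libraries correlated at -0.02 to 0.12, so the numbers were not taken to pair samples. With a replicate block over the 6 numbered libraries, 0 of the 9 genes passed at GV and 4 in maturation of knockout oocytes, the same counts as without it.

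Precision was limited by 2 libraries a group and, for Figla at MII, Sohlh1 and Tbpl2, by few reads.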
